A study of Mus musculus with 11 samples.

Results

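The 61 genes described here are the members of 7 solute carrier families that move amino acids and close relatives of amino acids across membranes. They are the entries of the deposited count table whose symbol names a numbered member of the Slc1, Slc3, Slc6, Slc7, Slc36, Slc38 or Slc43 family, 61 of 57186 entries. Entries were taken by name, and the choice was made with earlier results of these data known. They comprise 19 Slc6, 15 Slc7, 11 Slc38, 7 Slc1, 4 Slc36, 3 Slc43 and 2 Slc3 genes. RNA was sequenced in bulk from 3 sorted cell populations of untreated 14-day-old mice of genotype Cd3giCreRosa26stopZsGreen, in which a Cre allele named for the T cell receptor subunit gene Cd3g removes a stop in front of a ZsGreen reporter at Rosa26. The populations were thymic CD4- CD8- double negative 3 (DN3) cells, the pro-T cells that rearrange their T cell receptor genes (n = 3), ZsGreen-positive lung group 2 innate lymphoid cells (ILC2, n = 3) and ZsGreen-negative lung ILC2 (n = 5). All groups carried the same alleles, and ZsGreen marks the past activity of the Cre and not present expression of Cd3g.

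Lymphocytes import essential amino acids largely through system L, in which a light chain, Slc7a5 (LAT1) or Slc7a8 (LAT2), is held at the cell surface by the heavy chain Slc3a2 (CD98) and exchanges one neutral amino acid for another. Sodium-coupled carriers such as Slc1a5, Slc38a1 and Slc38a2 bring in glutamine and small neutral amino acids that such exchangers can trade, while Slc7a1 and Slc7a2 carry arginine and lysine. Members of the Slc36 and Slc38 families also sit on lysosomes, where Slc38a9 reports arginine to the growth kinase complex mTORC1.

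The libraries held 5951494 to 7745062 counts in DN3 cells, 5762491 to 17627469 in ZsGreen-positive ILC2 and 4495260 to 14424313 in ZsGreen-negative ILC2. Most defining markers followed the labels. Of 16 ILC2 markers, 15 were called lower and 1 higher in DN3 cells than in lung ILC2 (edgeR). Of 15 DN3 markers, 13 were called higher and 2 lower there. Of all genes tested, 42.1% were called lower and 36.7% higher. The ILC2 genes Areg, Ccr8, Il13, Il1rl1 and Klrg1 were at 0 counts in DN3 cells, where the other 11 had counts. The DN3 genes Ptcra and Rag2 were at 0 counts in both lung groups, where 12 (ZsGreen-positive) and 13 (ZsGreen-negative) of the 15 had counts. Lung libraries also held RNA of lung structural cells: the 34 epithelial, endothelial and fibroblast markers summed to 229 to 261 CPM (counts scaled to library size) in DN3 libraries, 1162 to 2854 CPM in ZsGreen-positive and 474 to 1294 CPM in ZsGreen-negative ILC2. The DN3 libraries come from another tissue and from a batch of their own, dated 17 October 2024, so tissue, batch and cell type cannot be told apart. Lung libraries were dated 2 September 2024, except 1 of each lung group dated 8 April 2025. Nothing in the labels says that libraries of a group came from separate animals, and the p-values then reflect only how far these libraries spread. In bulk RNA, fewer cells of a type and less RNA per cell cannot be told apart.

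The promoters of 3 system L genes are shown because their RNA sets the populations apart: Slc7a8, nearly absent from DN3 cells, its heavy chain partner Slc3a2, and Slc43a1, nearly absent from lung ILC2. Each run is the 250 bases before the annotated start on the gene's strand, from RefSeq on GRCm38.p6, at chr14:54781887-54782136 (minus strand) for Slc7a8, chr19:8713898-8714147 (minus strand) for Slc3a2 and chr2:84840073-84840322 (plus strand) for Slc43a1. Capitals mark matches to any of 5 motifs searched on both strands: the E-box CACGTG, the GATA motif AGATAA, the Runx motif TGTGGT, the E protein motif CAGCTG and the Atf4 motif TGATGNAA.
Slc7a8: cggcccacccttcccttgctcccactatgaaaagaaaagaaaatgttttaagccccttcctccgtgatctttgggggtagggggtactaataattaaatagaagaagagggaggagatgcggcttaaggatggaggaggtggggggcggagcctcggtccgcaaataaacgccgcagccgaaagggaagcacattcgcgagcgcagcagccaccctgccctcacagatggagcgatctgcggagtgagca
Slc3a2: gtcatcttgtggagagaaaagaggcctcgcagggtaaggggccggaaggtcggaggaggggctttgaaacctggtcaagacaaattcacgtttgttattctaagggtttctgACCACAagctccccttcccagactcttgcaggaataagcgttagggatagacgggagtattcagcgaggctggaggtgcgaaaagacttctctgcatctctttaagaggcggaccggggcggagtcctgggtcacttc
Slc43a1: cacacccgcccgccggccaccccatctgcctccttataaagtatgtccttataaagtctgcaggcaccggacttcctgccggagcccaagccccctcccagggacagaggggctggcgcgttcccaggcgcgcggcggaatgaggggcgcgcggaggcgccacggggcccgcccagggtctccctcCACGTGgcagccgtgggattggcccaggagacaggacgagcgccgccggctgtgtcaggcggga

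The Slc43a1 window held CACGTG, beginning 64 bases before the start, and 6.02% of 32851 promoter windows of this length held that motif. The Slc3a2 window held TGTGGT on the opposite strand, beginning 138 bases before the start, and 14% of windows held it. The Slc7a8 window held none of the 5, of which AGATAA occurred in 9.99%, CAGCTG in 13% and TGATGNAA in 3.45% of windows. A match is a string of letters and not a shown binding site.

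A minority of the families' genes were transcribed at a sizeable level. A mean of at least 5 CPM in at least 1 group was reached by 21 of the 61 genes: 17 in DN3 cells, 20 in ZsGreen-positive and 19 in ZsGreen-negative ILC2. Another 8, of the Slc6 and Slc7 families, had 0 counts in every library. The other 32 stayed under 5 CPM in each group, with the highest group mean at 4.01 CPM, and these include most glutamate and neurotransmitter carriers. In DN3 cells 26 genes had 0 counts, 18 of which had counts in lung ILC2. Lung ILC2 had 8 libraries against 3 of DN3 cells, and several of the 18 had few lung counts. Slc7a15 had 2 and Slc1a6 had 3 over all lung libraries, so 0 counts in DN3 cells do not show absence for such genes.

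**Figure D1:**
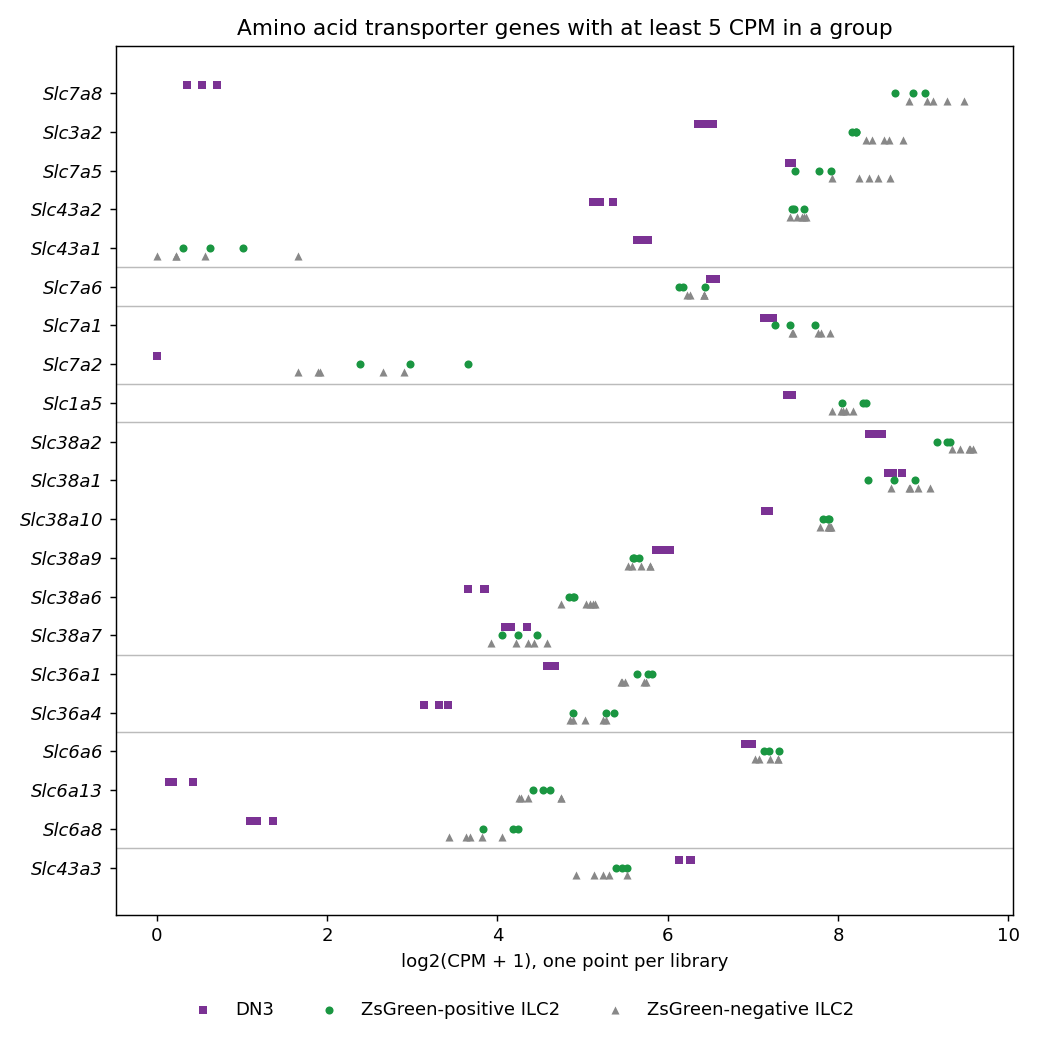
Levels of the 21 transporter genes with a mean of at least 5 CPM in a group, as log2(CPM + 1) on the x axis, with 1 point per library and genes grouped by role between grey lines. DN3 cells lie far below both lung groups for Slc7a8, Slc6a13, Slc6a8 and Slc7a2 and far above them for Slc43a1, while the lung groups overlap for most genes.

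Per kilobase of exon, which allows levels of different genes to be compared, the populations ranked their carriers differently. DN3 cells had Slc7a5 at the top, followed by Slc1a5, Slc38a2, Slc3a2 and Slc38a1. The ZsGreen-positive ILC2 order was Slc7a8, Slc3a2, Slc1a5, Slc38a2 and Slc7a5, and the ZsGreen-negative order was Slc7a8, Slc3a2, Slc7a5, Slc38a2 and Slc1a5. Slc7a5 averaged 46.4 ± 0.702 CPM per kilobase in DN3 cells, 57.5 ± 8.32 in ZsGreen-positive and 87.3 ± 15.0 in ZsGreen-negative ILC2 (SD, n = 3, 3 and 5). Slc7a8 averaged 0.0909 ± 0.0354, 93.02 ± 11.6 and 115 ± 19.5 CPM per kilobase in the same order of groups. In DN3 cells the mean ± SD ranges of Slc1a5 (41.3 ± 0.885) and Slc38a2 (39.1 ± 2.16) overlapped, as did those of Slc3a2 (24.4 ± 1.47) and Slc38a1 (23.4 ± 1.41). These SDs describe each gene alone, and the order of genes within libraries was not tested. The mean ± SD ranges of the leading ILC2 genes Slc7a8 and Slc3a2 also overlapped in both lung groups. In ZsGreen-negative ILC2 those of Slc7a5 and Slc38a2 (81.2 ± 5.45) overlapped as well. The order depends on the length used: with the longest transcript in place of all exons, Slc1a5 ranked 1 and Slc7a5 ranked 4 in DN3 cells. Slc7a8 kept rank 1 in both lung groups, while Slc7a5 ranked 5 in both. With these lengths Slc1a5 ranked 2 in ZsGreen-positive and 4 in ZsGreen-negative ILC2.

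Summed over all 61 genes, transporter RNA reached 291 ± 6.83 CPM per kilobase in DN3 cells, 555 ± 25.4 in ZsGreen-positive and 636 ± 34.7 in ZsGreen-negative ILC2 (SD, n = 3, 3 and 5). The lowest and highest libraries were at 286 and 298 in DN3 cells, 527 and 577 in ZsGreen-positive and 593 and 682 in ZsGreen-negative ILC2, so no library of one group lay within the range of another. System L with its heavy chain made up 28.7% ± 0.222 of this sum in DN3 cells, 45.3% ± 2.14 in ZsGreen-positive and 51.1% ± 3.30 in ZsGreen-negative ILC2. The Slc38 family took 32.5% ± 0.7098 in DN3 cells, 25.4% ± 0.260 in ZsGreen-positive and 24.9% ± 2.34 in ZsGreen-negative ILC2. The Slc1 carriers, nearly all Slc1a5, took 14.4% ± 0.341, 13.1% ± 1.72 and 10.1% ± 0.688 in that order. The purine carrier Slc43a3 took 5.68% ± 0.315 in DN3 cells against 1.74% ± 0.156 and 1.29% ± 0.176 in the ZsGreen-positive and ZsGreen-negative lung groups. These shares are descriptions and were not tested.

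**Figure D2:**
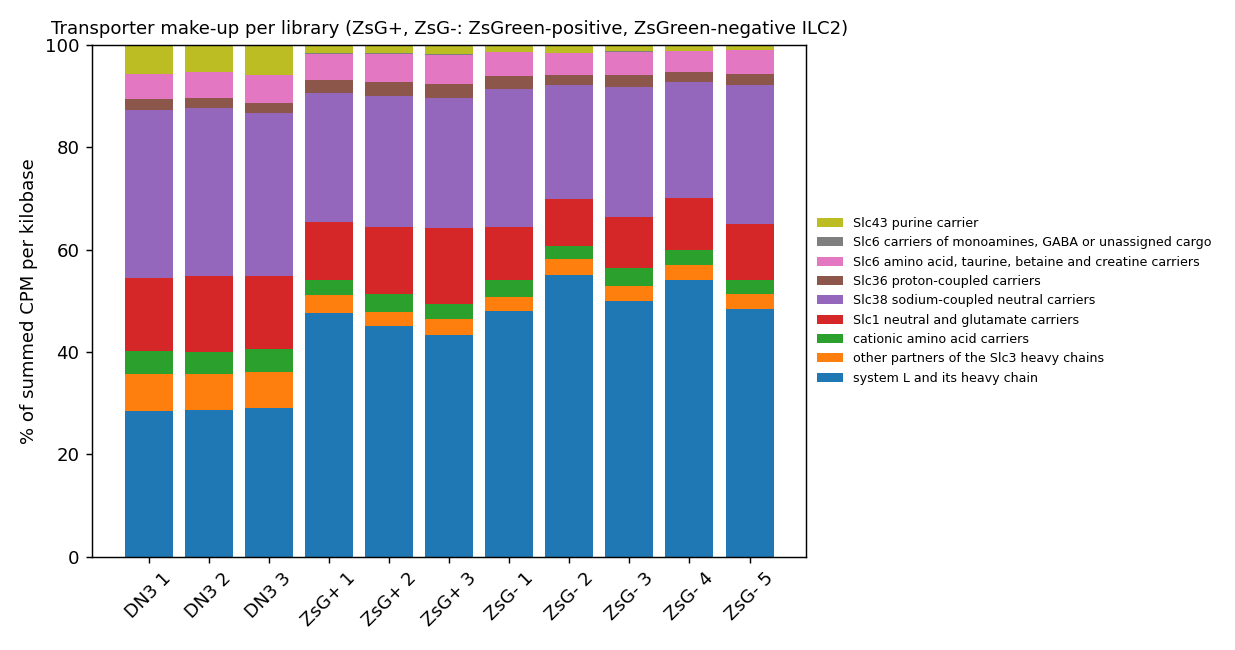
Make-up of transporter RNA in each of the 11 libraries, as the percentage of summed CPM per kilobase on the y axis, stacked by role. System L with its heavy chain takes 28.6% to 29.0% in DN3 libraries, 43.3% to 47.6% in ZsGreen-positive and 48.0% to 55.0% in ZsGreen-negative ILC2 libraries.

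System L held Slc7a8, the gene with the largest fold change between DN3 cells and lung ILC2 among members counted in both tissues. Of its 5 genes, Slc43a1 rose and Slc7a8, Slc43a2, Slc3a2 and Slc7a5 fell in DN3 cells relative to the 8 lung libraries, by edgeR's quasi-likelihood test with Benjamini-Hochberg adjustment over all genes tested. Over the whole table, 78.8% of 15132 tested genes were called in DN3 cells at an adjusted p under 0.05, 36.7% higher and 42.1% lower, so a call alone sets no gene apart and the sizes carry the description.

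Slc7a8 (ENSMUSG00000022180) stood at 0.280, 0.634 and 0.452 CPM in DN3 libraries, from 12 counts in all, at 520.1, 472 and 405 CPM in ZsGreen-positive ILC2, and at 456, 713, 526, 618 and 555 CPM in ZsGreen-negative ILC2. The 2 tissues were separated by a wide gap. The log2 fold change of DN3 over lung ILC2 was -10.06 ± 0.24 (SE, adjusted p = 8.8e-19, edgeR). Slc7a8 passed the filter on low counts through the lung libraries alone and had to differ.

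Slc43a1 (LAT3, ENSMUSG00000027075), a facilitative carrier of branched-chain amino acids that needs no heavy chain, ran the other way. It stood at 53.4, 49.0 and 51.0 CPM in DN3 libraries, at 1.02, 0.550 and 0.242 CPM in ZsGreen-positive ILC2, and at 0.173, 2.17, 0.480, 0.166 and 0 CPM in ZsGreen-negative ILC2. Every DN3 library lay far above every lung library, with a log2 fold change of 6.72 ± 0.39 (adjusted p = 7.43e-09, edgeR). Slc43a1 passed the filter on low counts through the DN3 libraries alone and had to differ.

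Its relative Slc43a2 (LAT4, ENSMUSG00000038178) was higher in lung ILC2, though also expressed in DN3 cells. It stood at 40.0, 35.9 and 33.9 CPM in DN3 libraries, at 192, 175 and 178 CPM in ZsGreen-positive ILC2, and at 189, 197, 171, 183 and 192 CPM in ZsGreen-negative ILC2. The lung groups overlapped and DN3 lay below both, with a log2 fold change of -2.31 ± 0.08 (adjusted p = 1.11e-16, edgeR). Its exons overlap the antisense gene Gm45606 over 672 bases in the GENCODE vM21 annotation, and whether the counting used strand is not given in the sources used here.

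The heavy chain Slc3a2 (ENSMUSG00000010095) stood at 91.3, 80.9 and 86.0 CPM in DN3 libraries, at 296, 294 and 286 CPM in ZsGreen-positive ILC2, and at 336, 387, 372, 432 and 321 CPM in ZsGreen-negative ILC2. No 2 groups overlapped. DN3 cells were lower than lung ILC2 with a log2 fold change of -1.94 ± 0.10 (adjusted p = 2.4e-14, edgeR).

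Slc7a5 (ENSMUSG00000040010) differed least between the tissues. It stood at 170.3, 175 and 170.5 CPM in DN3 libraries, at 219, 241 and 180.0 CPM in ZsGreen-positive ILC2, and at 328, 303, 354, 391 and 243 CPM in ZsGreen-negative ILC2. DN3 cells were lower with a log2 fold change of -0.65 ± 0.12 (adjusted p = 0.000103, edgeR). The call rested on the ZsGreen-negative libraries: it was -0.88 ± 0.13 against ZsGreen-negative ILC2 (adjusted p = 8.9e-06) and -0.27 ± 0.14 against ZsGreen-positive ILC2 (adjusted p = 0.0941), comparisons that share the DN3 libraries and in which 76.7% and 75.1% of all genes were called.

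The 2 light chains taken as a sum stood in a similar proportion to the heavy chain in every group. The sum of Slc7a5 and Slc7a8 over Slc3a2, each in CPM per kilobase, was 1.78, 2.06 and 1.89 in DN3 libraries, 1.94, 1.91 and 1.60 in ZsGreen-positive ILC2, and 1.89, 2.05, 1.90, 1.87 and 1.94 in ZsGreen-negative ILC2. The 3 groups overlapped in this ratio, while Slc3a2 itself separated all 3. With longest transcripts as lengths the ratio was 1.49 to 1.73 in DN3 cells, 1.48 to 1.80 in ZsGreen-positive and 1.71 to 1.90 in ZsGreen-negative ILC2, where DN3 and ZsGreen-negative libraries shared only the narrow stretch from 1.71 to 1.73. The ratio was chosen after its values were seen and was not tested.

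**Figure D3:**
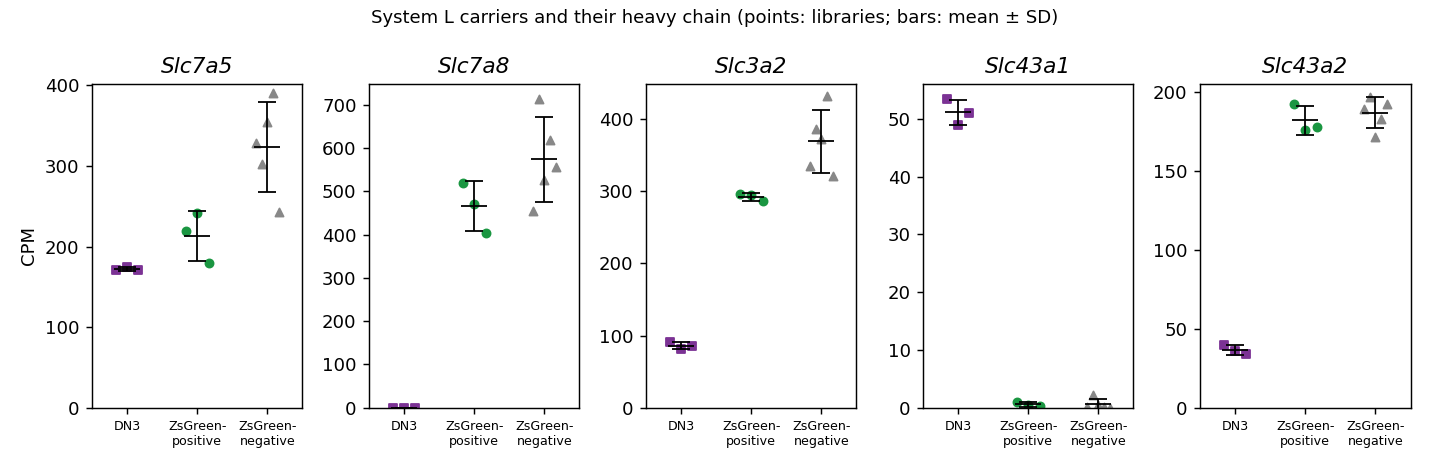
CPM of the 5 system L genes in each library, with DN3 cells left of ZsGreen-positive and ZsGreen-negative ILC2 in each panel, and bars at the mean ± SD (n = 3, 3 and 5). Slc7a8 is near 0 only in DN3 cells and Slc43a1 only in the lung groups, and for Slc7a5 the ZsGreen-positive libraries, at 180.0 to 241 CPM, lie between the DN3 and the ZsGreen-negative libraries.

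Among the carriers that can share a heavy chain with system L, Slc7a6 (y+LAT2), which exchanges cationic for neutral amino acids, rose slightly in DN3 cells. It stood at 93.7, 89.2 and 89.3 CPM in DN3 libraries, 85.5, 68.9 and 71.7 CPM in ZsGreen-positive and 75.4, 85.0, 85.0, 85.2 and 73.6 CPM in ZsGreen-negative ILC2. Every DN3 library lay above every lung library, by a small margin, with a log2 fold change of 0.24 ± 0.08 (adjusted p = 0.0105, edgeR). With no filter on low counts the adjusted p was 0.0501. Slc7a7 (y+LAT1) did not pass, at 1.90 ± 0.275 CPM in DN3 cells and 1.38 ± 0.726 CPM in lung ILC2 (SD, n = 3 and 8). The cystine carrier Slc7a11 was low in all groups, at 0.106 to 0.839 CPM in DN3 cells, 0.146 to 1.28 CPM in ZsGreen-positive and 0.173 to 1.68 CPM in ZsGreen-negative ILC2, and too low to be tested.

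Of the genes grouped as cationic amino acid carriers, 3 of 3 tested were called lower in DN3 cells by edgeR and 2 by DESeq2, which did not call Slc7a4, and Slc7a2 passed the filter on low counts through the lung libraries alone. Over all genes tested, edgeR called 42.1% lower. Slc7a1 (CAT1), the widely expressed arginine and lysine carrier, stood at 149.6, 139 and 142 CPM in DN3 libraries, 172, 212 and 152 CPM in ZsGreen-positive and 222, 176, 239, 217 and 175 CPM in ZsGreen-negative ILC2. The DN3 libraries lay below all lung libraries, the nearest at 152 CPM, with a log2 fold change of -0.41 ± 0.11 (adjusted p = 0.00235, edgeR), and against ZsGreen-positive ILC2 alone the adjusted p was 0.0598. Slc7a2 (CAT2), a second arginine carrier known from macrophages and liver, had 0 counts in DN3 cells, 6.84, 11.6 and 4.24 CPM in ZsGreen-positive and 2.77, 2.71, 6.48, 5.33 and 2.16 CPM in ZsGreen-negative ILC2. Against a floor of 3 counts over the DN3 group it was at least 39.8-fold lower in DN3 cells than in lung ILC2. Its exons overlap Gm26584 on the opposite strand over 473 bases. Slc7a4, whose cargo is not established, stood at 1.97 ± 0.237 CPM in DN3 cells and 3.27 ± 0.720 CPM in lung ILC2, with a log2 fold change of -0.69 ± 0.29 (adjusted p = 0.0327, edgeR).

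Slc1a5, Slc38a1 and Slc38a2, which carry glutamine, were expressed in all 3 populations. Slc1a5 (ASCT2), the main sodium-coupled glutamine carrier of dividing cells, stood at 174, 175 and 168 CPM in DN3 libraries, 263, 313 and 321 CPM in ZsGreen-positive and 260.4, 244, 266, 288 and 272 CPM in ZsGreen-negative ILC2. DN3 lay below both overlapping lung groups, with a log2 fold change of -0.66 ± 0.08 (adjusted p = 1.31e-07, edgeR). Its relative Slc1a4 (ASCT1) did not pass, at 2.33 ± 0.377 CPM in DN3 cells and 1.69 ± 0.668 CPM in lung ILC2. The other 5 Slc1 genes, which carry glutamate and aspartate, were under 1 CPM in every group mean.

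Of the Slc38 family, 1 of 7 tested genes rose and 4 fell in DN3 cells, Slc38a5, with 0 DN3 counts, among them. Over all genes tested, 36.7% rose and 42.1% fell. Slc38a2 (SNAT2), induced when amino acids run short, stood at 365, 345 and 327 CPM in DN3 libraries, 618, 635 and 572 CPM in ZsGreen-positive and 763, 648, 740.2, 689 and 749 CPM in ZsGreen-negative ILC2. No 2 groups overlapped, and DN3 was lower than lung ILC2 with a log2 fold change of -0.93 ± 0.08 (adjusted p = 8.44e-10, edgeR). Its chromosomal neighbour Slc38a1 (SNAT1) stood at 431, 398 and 383 CPM in DN3 libraries, 403, 477 and 324 CPM in ZsGreen-positive and 491, 393, 541, 457 and 457 CPM in ZsGreen-negative ILC2. All groups overlapped for Slc38a1, with a log2 fold change of -0.10 ± 0.11 (adjusted p = 0.414, edgeR).

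Slc38a9, the lysosomal arginine sensor, rose in DN3 cells. It stood at 60.0, 64.3 and 57.1 CPM in DN3 libraries, 47.8, 47.1 and 49.6 CPM in ZsGreen-positive and 46.9, 45.5, 54.3, 54.6 and 50.7 CPM in ZsGreen-negative ILC2. The DN3 libraries lay just above all lung libraries, with a log2 fold change of 0.32 ± 0.08 (adjusted p = 0.0014, edgeR). Its exons overlap the antisense gene Gm47827 over 182 bases. Slc38a7, a lysosomal exporter of glutamine and asparagine, did not pass, at 17.4 ± 1.70 CPM in DN3 cells and 18.7 ± 2.94 CPM in lung ILC2.

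The less studied Slc38a6 and Slc38a10 fell in DN3 cells. Slc38a6 stood at 13.4, 13.3 and 11.6 CPM in DN3 libraries, 27.7, 28.6 and 28.8 CPM in ZsGreen-positive and 34.4, 25.8, 33.9, 32.9 and 31.8 CPM in ZsGreen-negative ILC2, with a log2 fold change of -1.22 ± 0.12 (adjusted p = 3.66e-09, edgeR). Slc38a10 stood at 145, 141 and 143 CPM in DN3 libraries, 226, 235 and 236 CPM in ZsGreen-positive and 236, 219.6, 240.2, 238 and 234 CPM in ZsGreen-negative ILC2, with a log2 fold change of -0.67 ± 0.07 (adjusted p = 1.07e-08, edgeR). The lung groups overlapped for both genes and DN3 lay below them. Transcripts of Slc38a6 share stretches of at least 500 bases at over 95% identity with other genes, among them Noct and Rab3gap1, so its reads could be split between them. Exons of Slc38a10 overlap Gm11769 on the opposite strand over 367 bases.

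Both tested Slc36 genes, of which Slc36a1 moves small amino acids with protons, fell in DN3 cells, where 42.1% of all genes fell. Slc36a1 (PAT1) stood at 24.5, 23.3 and 22.9 CPM in DN3 libraries, 48.6, 53.7 and 55.2 CPM in ZsGreen-positive and 52.6, 42.8, 51.9, 43.3 and 44.3 CPM in ZsGreen-negative ILC2 (log2 fold change -1.02 ± 0.10, adjusted p = 5.63e-09, edgeR). Slc36a4 (PAT4) stood at 8.95, 7.82 and 9.72 CPM in DN3 libraries, 37.9, 40.3 and 28.5 CPM in ZsGreen-positive and 37.7, 31.8, 36.7, 28.6 and 28.0 CPM in ZsGreen-negative ILC2 (log2 fold change -1.88 ± 0.15, adjusted p = 1.64e-10, edgeR). For both genes the lung groups overlapped and DN3 lay below.

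Of the Slc6 carriers of amino acids, taurine, betaine and creatine, 4 of 4 tested genes fell in DN3 cells, where 42.1% of all genes fell. Slc6a12 and Slc6a13 passed the filter on low counts through the lung libraries alone and had to differ, and Slc6a8 had 34 counts in DN3 cells. The creatine carrier Slc6a8 stood at 1.26, 1.58 and 1.13 CPM in DN3 libraries, 13.3, 17.97 and 17.2 CPM in ZsGreen-positive and 15.6, 11.4, 11.8, 9.82 and 13.2 CPM in ZsGreen-negative ILC2, with a log2 fold change of -3.31 ± 0.23 (adjusted p = 1.45e-11, edgeR). Slc6a13 (GAT2), a carrier of GABA and taurine, stood at 0.140, 0.106 and 0.339 CPM in DN3 libraries, from 5 counts in all, at 20.4, 23.7 and 22.1 CPM in ZsGreen-positive and 18.3, 25.8, 18.01, 25.8 and 19.6 CPM in ZsGreen-negative ILC2. Its log2 fold change was -6.65 ± 0.30 (adjusted p = 6.9e-15, edgeR), and DN3 and lung libraries were far apart.

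The adjacent gene Slc6a12 (BGT1), a betaine and GABA carrier, showed the same absence from DN3 cells. It had 0 counts there, 2.62, 3.85 and 4.18 CPM in ZsGreen-positive and 2.42, 2.17, 4.08, 4.33 and 1.34 CPM in ZsGreen-negative ILC2, and was at least 26.0-fold lower in DN3 cells. The taurine carrier Slc6a6 was expressed throughout, at 121, 118.95 and 126 CPM in DN3 libraries, 144, 157 and 139 CPM in ZsGreen-positive and 155, 134, 156, 129.6 and 146 CPM in ZsGreen-negative ILC2. Its log2 fold change of -0.22 ± 0.08 (adjusted p = 0.0176, edgeR) was not called without DN3 library 1 (adjusted p = 0.0691), without DN3 library 2 (0.0803) or with upper-quartile scaling (0.205). That scaling put the median of all genes at 0.01 in place of -0.09. The exons of Slc6a6 overlap Gm44981 on the opposite strand over 117 bases.

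The purine nucleobase carrier Slc43a3, a Slc43 gene that is not an amino acid carrier, rose in DN3 cells. It stood at 75.7, 68.9 and 76.4 CPM in DN3 libraries, 42.96, 41.1 and 44.8 CPM in ZsGreen-positive and 36.8, 44.9, 34.1, 38.6 and 29.5 CPM in ZsGreen-negative ILC2. All DN3 libraries lay above all lung libraries, with a log2 fold change of 0.96 ± 0.10 (adjusted p = 7.87e-09, edgeR).

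Of the 32 genes detected but under 5 CPM in every group, 6 had no overlap between DN3 and lung libraries. Only 3 of the 6 passed the filter on low counts, so the 68.8% of all genes tested that had no overlap describes a different set. Slc6a19, a neutral amino acid carrier of gut and kidney, was higher in DN3 cells, at 0.979 to 1.70 CPM, than in ZsGreen-positive (0.367 to 0.437 CPM) and ZsGreen-negative ILC2 (0 to 0.240 CPM). The glycine carrier Slc6a9 was at 0.226 to 0.699 CPM in DN3 cells, 1.10 to 1.60 CPM in ZsGreen-positive and 0.902 to 2.40 CPM in ZsGreen-negative ILC2, and its exons overlap Ccdc24 on the opposite strand over 1258 bases. Slc38a8 had 1 count in DN3 cells and 20 in lung ILC2. The glutamine and histidine carrier Slc38a5 had 0 counts in DN3 cells, 1.83 to 4.42 CPM in ZsGreen-positive and 0.692 to 2.01 CPM in ZsGreen-negative ILC2, at least 20.8-fold lower in DN3 cells. The noradrenaline carrier Slc6a2 had 0 counts in DN3 cells and was at least 22.1-fold lower there. The sixth is Slc6a12, given above.

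Across the 27 family members that passed the filter on low counts, 4 were called higher and 19 lower in DN3 cells, and the median log2 fold change was -0.69, beside -0.09 over all genes tested. Some members passed that filter only through the tissue where they were high and had to differ. They include the 4 with 0 DN3 counts, Slc7a8 and Slc6a13, with 12 and 5 DN3 counts, and Slc43a1, with 30 lung counts. The counts and the median above hold these members and are a description only. Structural marker RNA also differed between the tissues, with the sums given above, and its part in these differences was not tested.

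**Figure D4:**
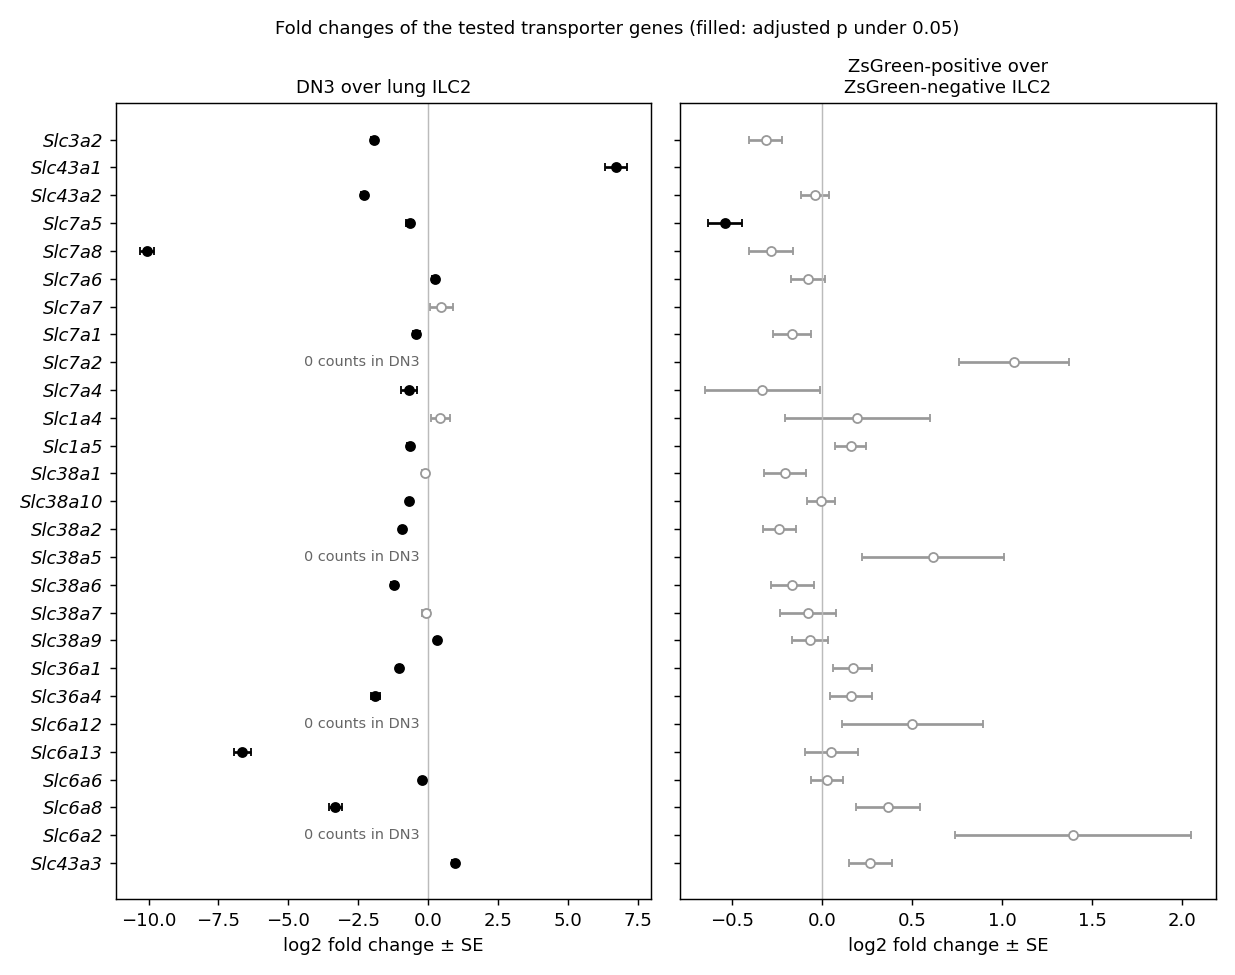
Log2 fold changes ± SE of the 27 transporter genes tested in either comparison, DN3 over lung ILC2 on the left and ZsGreen-positive over ZsGreen-negative ILC2 on the right, with different x scales. Filled points have an adjusted p under 0.05 (edgeR), genes with 0 DN3 counts have no point on the left, and a gene with no point on the right was too low there to be tested; Slc7a5 is the only filled point on the right.

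Within the lung, Slc7a5 was the one family member that differed between the ILC2 groups by the test. It was lower in ZsGreen-positive ILC2, at 219, 241 and 180.0 CPM, than in ZsGreen-negative ILC2, at 328, 303, 354, 391 and 243 CPM. The groups did not overlap, though the highest ZsGreen-positive and the lowest ZsGreen-negative library nearly met, at 240.9 and 242.8 CPM. The log2 fold change was -0.54 ± 0.10 (SE, adjusted p = 0.00234, edgeR with batch date as a term). Of the 25 family members tested, 0 were called higher and 1 lower, where 4.52% of 13771 genes were called, 2.35% higher and 2.18% lower, so the share called is near that of all genes. At an unadjusted p under 0.05, 3 were higher and 4 lower. DESeq2 called 1 higher and 2 lower, and limma voom called 2 higher and 2 lower. The median log2 fold change of the 25 was -0.01 and that of all genes -0.00058.

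The Slc7a5 call held when any 1 library was left out (adjusted p 0.000864 to 0.0346) and within the libraries of 2 September 2024 alone (adjusted p = 0.00771). It was lost when the level of lung structural markers entered the fit as a term (log2 fold change -0.59 ± 0.15, adjusted p = 0.0937), a fit in which the estimate was as large and its error wider. These markers moved with the ZsGreen groups: 6 of 31 tested were called higher and 0 lower in ZsGreen-positive ILC2, with a median log2 fold change of 1.14. The mean log2(CPM + 1) of the markers was 3.61, 3.90 and 4.37 in ZsGreen-positive and 3.14, 2.84, 3.81, 2.61 and 2.74 in ZsGreen-negative libraries. No structural marker was at 0 counts in either lung group. Macrophage and dendritic cell markers summed to 117 to 254 CPM in ZsGreen-positive and 61.2 to 164 CPM in ZsGreen-negative ILC2, with 0 of 8 called by edgeR, 2 higher at an unadjusted p under 0.05, and 1 higher by DESeq2 and by limma voom. Of B cell markers, 1 of 5 tested was called higher (4 at an unadjusted p under 0.05, median log2 fold change 0.86), with sums of 102 to 177 CPM in ZsGreen-positive and 96.7 to 117 CPM in ZsGreen-negative ILC2. Of alpha-beta T cell markers, 2 of 7 were called higher, with sums of 396 to 513 CPM in ZsGreen-positive and 395 to 443 CPM in ZsGreen-negative ILC2. Of neutrophil, basophil and mast cell markers, 0 of 3 were called and 2 were higher at an unadjusted p under 0.05 (median 1.21; 0 called by DESeq2 or limma voom), with sums of 25.8 to 53.4 CPM in ZsGreen-positive and 25.4 to 49.8 CPM in ZsGreen-negative ILC2. No B cell or T cell marker was at 0 counts in either lung group, while Ly6g, Mcpt4 and Tpsb2 were at 0 in both. The part of these cells' RNA in the result was not tested. Beyond that fit, the part of structural RNA in the result was not tested.

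The heavy chain Slc3a2 leaned the same way without passing. Its levels, given above, did not overlap between the ZsGreen groups, and the log2 fold change was -0.31 ± 0.09 (adjusted p = 0.0625, edgeR), with an adjusted p of 0.0222 by DESeq2 and 0.0499 by limma voom, and of 0.0181 to 0.71 over 18 alternatives. Slc38a2 did not overlap either, at 618, 635 and 572 CPM in ZsGreen-positive and 648 to 763 CPM in ZsGreen-negative ILC2 (log2 fold change -0.24 ± 0.09, adjusted p = 0.169). Slc7a8 overlapped, with a log2 fold change of -0.28 ± 0.12 (adjusted p = 0.237). Libraries of the 2 groups did not overlap for 10.3% of all genes tested.

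The largest estimates in the other direction belonged to 2 low genes. Slc7a2 stood at 6.84, 11.6 and 4.24 CPM in ZsGreen-positive and 2.77, 2.71, 6.48, 5.33 and 2.16 CPM in ZsGreen-negative ILC2, with a log2 fold change of 1.07 ± 0.30 (adjusted p = 0.0534, edgeR). The adjusted p was 0.0383 by DESeq2 and 0.0446 by limma voom, and Slc7a2 was called in 5 of 18 alternatives. Slc6a2 stood at 4.37, 3.85 and 3.82 CPM in ZsGreen-positive and 0.346, 0.902, 6.00, 2.00 and 0.595 CPM in ZsGreen-negative ILC2, with a log2 fold change of 1.39 ± 0.66 (adjusted p = 0.319, edgeR). Its adjusted p was 0.218 by DESeq2 and 0.0387 by limma voom, and Slc6a2 was called in 4 of 18 alternatives. For both genes the groups overlapped. The highest ZsGreen-negative library was library 3 for both, and it also had the highest structural marker level of that group, 3.81. Without that library both genes were called by edgeR, with adjusted p-values of 0.0223 for Slc7a2 and 0.00646 for Slc6a2. The next highest for both genes was ZsGreen-negative library 4, which had the lowest structural marker level of that group, 2.61. Among ZsGreen-positive libraries, library 3 had the highest marker level, 4.37, and the lowest value of both genes. Beyond the fit that follows, the part of structural RNA in these estimates was not tested. With the structural marker level in the fit the estimates were 0.70 ± 0.47 for Slc7a2 (adjusted p = 0.85) and 0.01 ± 0.55 for Slc6a2 (adjusted p = 1).

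The wider amino acid pathways were read from 9 lists of genes outside the transporter families, chosen with earlier results of these data known. These lists are described by their counts beside the 36.7% higher and 42.1% lower of all genes tested in DN3 cells. Some list genes passed the filter on low counts only through the tissue where they were high and had to differ. They include Stc2, Tph1, Castor1 and Tfeb, high in lung ILC2, and Bcat1, high in DN3 cells. The counts and medians of the lists hold these genes and are a description only. Of the serine, glycine and one-carbon enzymes, which supply nucleotide synthesis, 12 of 15 rose and 2 fell, with a median log2 fold change of 1.30, and 1 fell when ZsGreen-negative library 1 or 3 was left out. Phgdh, the first enzyme of serine synthesis, averaged 402 ± 15.1 CPM in DN3 cells and 41.6 ± 11.3 CPM in lung ILC2 (SD, n = 3 and 8; adjusted p = 9.82e-18, edgeR). Shmt1, which splits serine to glycine and a one-carbon unit, averaged 117 ± 4.32 and 8.91 ± 1.52 CPM in DN3 cells and lung ILC2. Its mitochondrial partner Shmt2 averaged 304 ± 18.5 CPM in DN3 cells and 76.8 ± 7.72 CPM in lung ILC2, and Mthfd1 averaged 176 ± 4.53 CPM in DN3 cells and 51.3 ± 4.26 CPM in lung ILC2.

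Of the 23 cytosolic aminoacyl-tRNA synthetases and their scaffold proteins, which load amino acids onto tRNA, 21 rose and 1 fell in DN3 cells (median log2 fold change 0.94), with 2 lower when ZsGreen-negative library 1, 3 or 5 or ZsGreen-positive library 2 was left out. Iars1, for isoleucine, averaged 188 ± 7.45 CPM in DN3 cells and 58.6 ± 7.44 CPM in lung ILC2. Rars1, for arginine, averaged 103 ± 6.98 CPM in DN3 cells and 33.9 ± 2.61 CPM in lung ILC2, and Mars1, for methionine, rose by 1.27 on the log2 scale.

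Of 16 tested genes of the amino acid stress response driven by Atf4, 1 rose and 10 fell in DN3 cells (median log2 fold change -0.98). Ppp1r15a, a phosphatase subunit that ends this response, averaged 10.1 ± 4.87 CPM in DN3 cells and 1596 ± 261 CPM in lung ILC2 (adjusted p = 4.9e-12, edgeR). The transcription factor Cebpb averaged 4.99 ± 0.589 CPM in DN3 cells and 151 ± 48.4 CPM in lung ILC2, and Pck2 averaged 18.9 ± 1.64 CPM in DN3 cells and 44.4 ± 4.44 CPM in lung ILC2. Stc2 had 1 count in DN3 cells and 839 in lung ILC2, a lung over DN3 ratio of 335 (95% counting interval 60.1 to 13236).

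Glutamine and glutamate enzymes split, with 8 of 20 higher and 10 lower (median -0.33). Asns and Gpt2 stand in this list and in the Atf4 list. Glul, which makes glutamine, averaged 39.2 ± 1.87 CPM in DN3 cells and 416 ± 34.5 CPM in lung ILC2. Gclc, which starts glutathione synthesis, averaged 46.5 ± 1.69 CPM in DN3 cells and 489 ± 42.8 CPM in lung ILC2. Cad and Ppat, which spend glutamine on pyrimidines and purines, averaged 317 ± 7.36 and 125 ± 0.680 CPM in DN3 cells against 82.0 ± 5.94 and 25.6 ± 3.57 CPM in lung ILC2.

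Amino acid sensing and mTORC1 genes changed both ways, with 12 of 34 higher and 12 lower (median 0.09). The arginine sensor Castor1 averaged 0.509 ± 0.249 CPM in DN3 cells and 35.5 ± 6.62 CPM in lung ILC2, and Sesn3 averaged 48.2 ± 4.06 CPM in DN3 cells and 179 ± 20.3 CPM in lung ILC2. Rheb and Fnip2 fell by 1.22 and 2.92 on the log2 scale. Branched-chain amino acid enzymes had 6 of 15 higher and 4 lower (median -0.03). Among these, Bcat1, the cytosolic transaminase, averaged 19.2 ± 1.27 CPM in DN3 cells and 0.423 ± 0.233 CPM in lung ILC2, Hibadh rose by 1.95, and Ppm1k and Bckdhb fell by 2.05 and 1.27 on the log2 scale.

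Genes of tryptophan and tyrosine use had 4 of 8 higher and 3 lower (median 0.60). Tph1, which starts serotonin synthesis, had 0 counts in DN3 cells and averaged 42.7 ± 9.15 CPM in lung ILC2, at least 339-fold lower in DN3 cells, while Maoa, Kyat1 and Kyat3 rose by 3.36, 1.71 and 0.90 on the log2 scale. Of other amino acid and peptide carriers, 11 of 21 were higher and 7 lower (median 0.31). Slc16a10, a carrier of aromatic amino acids, averaged 104 ± 5.51 CPM in DN3 cells and 33.2 ± 2.24 CPM in lung ILC2, and the mitochondrial aspartate-glutamate carrier Slc25a13 averaged 22.0 ± 1.06 CPM in DN3 cells and 2.48 ± 0.685 CPM in lung ILC2. The serine carrier Sfxn1 rose by 1.24 and Sfxn3 fell by 1.27. Of regulators studied in lymphocyte amino acid uptake, 7 of 19 were higher and 8 lower (median 0.04). The lysosomal transcription factor Tfeb averaged 0.458 ± 0.155 CPM in DN3 cells and 45.1 ± 6.91 CPM in lung ILC2, its relative Tfe3 15.8 ± 0.454 CPM in DN3 cells and 58.3 ± 3.61 CPM in lung ILC2, and Hif1a and Bach2 fell by 1.70 and 1.75 on the log2 scale. Without DN3 library 2 the number of regulators called lower was 5.

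**Figure D5:**
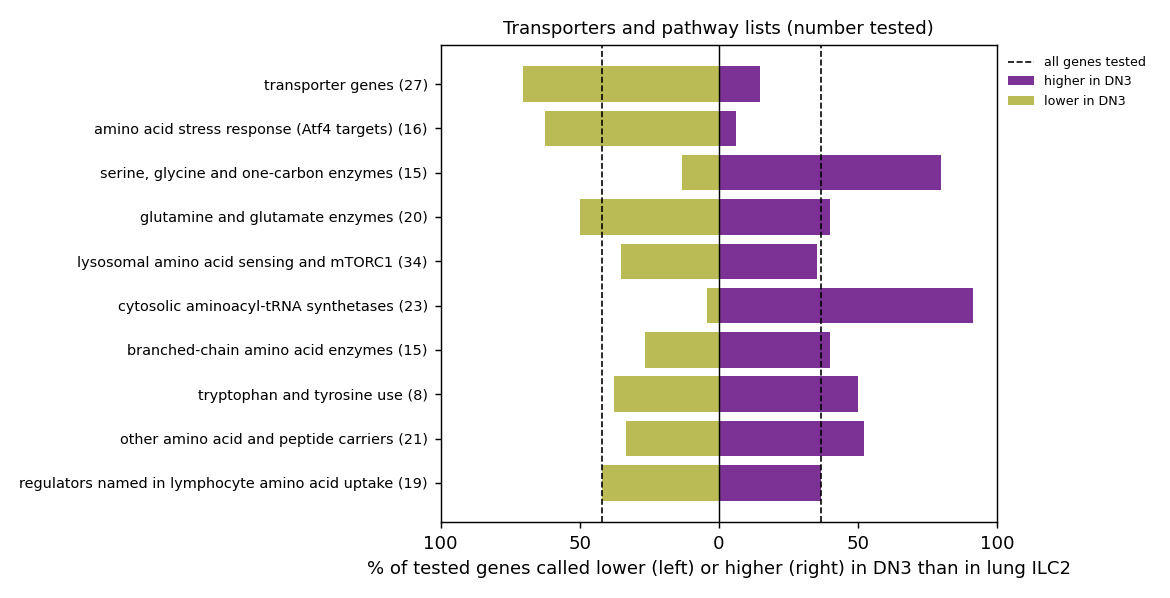
Percentage of tested genes of each list called higher (right) or lower (left) in DN3 cells than in lung ILC2, with dashed lines at 36.7% and 42.1% for all 15132 genes tested and the number tested in brackets. The serine and one-carbon enzymes (12 of 15) and aminoacyl-tRNA synthetases (21 of 23) lie far to the right, and the transporter genes (19 of 27) far to the left. Some transporter genes and some genes of the other lists passed the filter on low counts only through the tissue where they were high and had to differ.

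Between the lung groups, the counts in the same lists stand beside the 2.35% higher and 2.18% lower of all genes tested there. Of Atf4 targets, 2 of 16 rose and 1 fell in ZsGreen-positive ILC2: Stc2 averaged 19.4 ± 2.89 CPM in ZsGreen-positive and 8.76 ± 1.76 CPM in ZsGreen-negative ILC2 (SD, n = 3 and 5; adjusted p = 0.000838, edgeR), and Cebpb averaged 108 ± 19.1 CPM in ZsGreen-positive and 176 ± 41.4 CPM in ZsGreen-negative ILC2 (adjusted p = 3.34e-05). Phgdh and Dld fell among 15 serine and one-carbon genes, Sesn1 among 33 sensing genes, and Hif1a, Mycn and Bach1 among 19 regulators. Phgdh averaged 31.5 ± 4.80 CPM in ZsGreen-positive and 47.7 ± 9.52 CPM in ZsGreen-negative ILC2, Sesn1 47.6 ± 2.63 CPM in ZsGreen-positive and 73.6 ± 5.72 CPM in ZsGreen-negative ILC2, and Hif1a 259.7 ± 21.6 CPM in ZsGreen-positive and 362 ± 47.6 CPM in ZsGreen-negative ILC2. Of 8 tryptophan and tyrosine genes, 1 rose.

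No gene was called by edgeR in 4 lists: glutamine and glutamate enzymes (1 higher and 1 lower of 19 at an unadjusted p under 0.05), synthetases (1 and 0 of 23), branched-chain enzymes (0 and 1 of 14) and other carriers (2 and 1 of 21), nor by DESeq2 or limma voom. Among glutamine and glutamate enzymes, 1 was called lower without ZsGreen-negative library 2 and 1 higher without ZsGreen-negative library 4. Without that library 4, 1 branched-chain enzyme was called lower. With no filter on low counts, 1 other carrier was called higher. Cebpb, Stc2 and Sesn1 stayed called without any 1 library. The number of Atf4 targets called higher was 1, in place of 2, when ZsGreen-positive library 1, 2 or 3 was left out. It was also 1 within the libraries of 2 September 2024 alone. The call of Dld was lost without ZsGreen-negative library 5 (adjusted p = 0.0504) or ZsGreen-positive library 2 (0.0816), that of Phgdh without ZsGreen-positive library 1 (0.0795) or 2 (0.151), and that of Hif1a without ZsGreen-positive library 1 (0.0901). Mycn lost its call without ZsGreen-negative library 5 (0.0895) or ZsGreen-positive library 2 (0.0837) or 3 (0.0786), and Bach1 without ZsGreen-negative library 1 or 5 or any ZsGreen-positive library (0.0557 to 0.166). With the structural marker level in the fit, Hif1a was the one of these 8 genes still called, and the errors of the others were wider. The log2 fold changes with and without that term were 1.16 ± 0.31 and 1.16 ± 0.18 for Stc2, -0.61 ± 0.16 and -0.64 ± 0.10 for Sesn1, and -0.36 ± 0.15 and -0.40 ± 0.09 for Dld. For Cebpb they were -0.57 ± 0.13 and -0.77 ± 0.09, for Phgdh -0.37 ± 0.23 and -0.60 ± 0.15, for Mycn -0.40 ± 0.18 and -0.52 ± 0.11, and for Bach1 -0.68 ± 0.15 and -0.42 ± 0.11.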

How the data were processed

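Per the labels' protocols, RNA was isolated with the PicoPure kit and made into libraries with the Watchmaker mRNA kit. The authors deposited whole-number counts per gene, unnormalized, in a table of all 11 libraries and one of the 8 lung libraries, whose columns were identical. The submitters' processing notes name GRCm39 and DESeq2. No source used here gives the aligner, the annotation or the strand setting.

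Counts were tested with edgeR 4.0.16 in R 4.3.3 (TMM, a minimum count of 10 in filterByExpr, robust quasi-likelihood fit, Benjamini-Hochberg threshold 0.05): ZsGreen-positive over ZsGreen-negative ILC2 in the 8 lung libraries with batch date as a term, and DN3 over lung ILC2 in all 11 libraries with no batch term. DESeq2 1.42.0 and limma voom 3.58.1 were alternatives. Levels are CPM after TMM over 11 libraries, and per-kilobase levels use GENCODE vM21 exon lengths, present for 61 of 61 genes. On data simulated for 13488 genes, the lung fit recovered 92% of log2 changes of 1 and 99% of 2. For the DN3 comparison, on 14548 genes, these were 93% and 99%. False calls numbered 11 in the lung fit and 12 in the DN3 fit. Changes under 1 were not simulated, so these shares do not describe the smaller differences between the lung groups.

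The members and the gene lists were chosen with earlier results of these data known. The text names called members that reach 5 CPM in the higher group, 12 chosen in any case, low members whose DN3 and lung libraries did not overlap, and of each list at most 4 called genes reaching 5 CPM, those with the smallest p. Some items these rules name are not reported here. Likeness between genes over libraries, also planned, is not given, since DN3 and lung libraries form separate clusters. Promoters were found for 43 of 61 members. The 16 replicate pairs differed by more than sampling noise (1.72 to 13.4 chi-square units per degree of freedom). Intervals and floors cover counting error only.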

Additional observations from a re-analysis of the deposited data

Results flagged for a closer look

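In ZsGreen-negative ILC2, library 2 stood apart from the other 4 libraries for 2 transporter genes, with a gap to its nearest neighbour above Dixon's 95% critical value for 5 samples. Chance flags about 1 in 20 groups, and the rule was run on 27 transporter genes and the structural marker level, so chance flags are likely among them. Slc43a1 was at 2.165 CPM in that library, from 12 counts, and at 0 to 0.480 CPM in the others, from 0 to 2 counts each, with a gap of 0.778 of the range. Slc38a10 was at 219.6 CPM there and at 234 to 240.2 CPM in the others, with a gap of 0.712 of the range. In both cases the values stayed far from those of DN3 libraries, at 49.0 to 53.4 CPM for Slc43a1 and 141 to 145 CPM for Slc38a10.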

How the results depend on the processing

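No result reversed its direction while called. For DN3 over lung ILC2, leaving out each library in turn gave 4 members higher and 18 to 21 lower, and 5220 to 5900 genes higher and 6174 to 6561 lower in the whole table. The other alternatives kept every one of these counts within 1.5 times, and the replicate block changed no member's call. For ZsGreen-positive over ZsGreen-negative ILC2 the counts moved more. Leaving out each library gave 146 to 471 genes higher and 140 to 343 lower, with 0 to 2 members higher and 1 lower. Omitting ZsGreen-negative library 5 gave 146 higher and 140 lower, omitting ZsGreen-positive library 2 gave 149 and 172, and omitting ZsGreen-positive library 3 gave 148 and 154. The 2 members higher were Slc7a2 and Slc6a2, when ZsGreen-negative library 3 was omitted. With no filter on low counts 621 genes were higher and 460 lower, and 2 members higher and 3 lower. Members called were 1 higher and 2 lower by DESeq2, 2 and 2 by limma voom, and 2 lower in one fit of all 11 libraries. The libraries of 2 September 2024 alone gave 145 higher and 153 lower. With the structural marker level as a term, 17 genes were higher and 48 lower, and 0 members lower (the lowest member p is that of Slc7a5, adjusted p = 0.0937). The cause of these shifts was not tested. Replicate numbers in the titles did not pair the libraries (correlations of same-numbered deviations -0.09 to 0.07, with 0 of 9 highest for the own number). With the replicate block in the lung fit, 82 genes were lower, 2 members higher and 0 lower, and the adjusted p of Slc7a5 was 0.143. In that fit Sesn1 (adjusted p = 0.178), Hif1a (0.159), Phgdh (0.0786), Dld (0.256), Mycn (0.187) and Bach1 (0.592) were also not called, while Cebpb and Stc2 were. With upper-quartile scaling, 2 Atf4 targets in place of 1 were called higher in DN3 cells. Levels under 1 CPM rest on few counts, since 1 count was worth 0.0606 to 0.240 CPM.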
